A study of Mus musculus with 17 samples.

Results

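The diaphragm is the muscle that drives inspiration, and its transcript levels were compared between tumor-free mice that received rFibcd1 (Control + rFibcd1, 5 mice) and tumor-free mice that received mock injections (Control, 5 mice). These 10 mice were all the tumor-free mice among the 17 mice sequenced, and the comparison covered the 13305 of 47643 gene symbols that reached at least 1 TPM in at least 3 of the 17 samples, where TPM is a transcript abundance divided by gene length and scaled to a fixed total per sample. All mice were 4-month-old C57BL/6J males. rFibcd1 is a recombinant fragment from the C-terminal part of mouse Fibcd1, produced with a baculovirus vector and given repeatedly into the peritoneal cavity. Mock injections held the vehicle, phosphate-buffered saline with bovine serum albumin, so every mouse in the comparison was injected. The other 7 mice carried Lewis lung carcinoma (LLC) tumors and received mock (LLC, 3 mice) or rFibcd1 (LLC + rFibcd1, 4 mice). They entered here through the filter on low values, the shared estimate of the spread and the test of the interaction of tumor and rFibcd1. The question was which transcripts rFibcd1 moves in a muscle that is not exposed to a tumor. RNA came from a portion of the muscle with all of its cell types, so for every gene below fewer cells of a type and less RNA per cell cannot be told apart.

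Fibcd1 is a membrane protein with a fibrinogen-like domain that can be shed and act as a secreted factor, and such domains are known as ligands of integrins, the receptors that anchor cells to the extracellular matrix. In the study rFibcd1 was examined as an activator of ERK, the last kinase of the Ras, Raf and MEK cascade. Active ERK switches on immediate early genes such as Egr1 and Fos, and also its own inhibitors, the Dusp phosphatases and the Sprouty and Spred proteins, so the transcripts of these inhibitors are in common use as a readout of the cascade.

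The recovered depth was 50800000 to 53700000 reads per mouse, estimated from the steps of low values, and 1 TPM in a gene of 1000 bases stood for 23.9 to 26.7 reads. Skeletal muscle actin, Acta1, lay between 21470 and 25160 TPM in the 10 mice, as the tissue label states. Mitochondrially encoded transcripts held 45.4% to 50.4% of all TPM after rFibcd1 and 45.9% to 48.4% in Control (exact permutation p = 0.524, two-sided, n = 5 per group). Some libraries stood apart from the others of their group. Control + rFibcd1 replicate 2 lay at -53.2 on the second principal component of the 10 mice (32.4% of the variance) and held 5196 TPM of liver-derived transcripts, against 50.03 to 714.7 in the other 9 mice. Control + rFibcd1 replicate 1 held 1910 TPM of leukocyte and macrophage transcripts, against 265.5 to 705.3 in the others. Several results are therefore given with and without these mice.

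No gene differed between Control + rFibcd1 and Control at an adjusted p under 0.05 in limma (0 of 13305 genes, 0.00%), and the smallest adjusted p was 0.927. At an unadjusted p under 0.05, limma gave 584 genes (4.39%), of which 42 were higher after rFibcd1 (0.316%) and 542 were lower (4.07%), while Dunn's test gave 322 genes. The study's cutoff, an unadjusted p under 0.05 with a change over 1.5-fold, was passed by 8 genes (0.0601%), 4 higher and 4 lower (0.0301% each). For 11497 genes (86.4%) the 95% interval of the difference lay within a 1.5-fold change in either direction, and for 12585 genes (94.6%) within a 2-fold change. The median standard error of a difference was 0.093 on the log2(TPM + 1) scale. All differences below are on this scale, where the pseudocount shrinks the fold of genes at low TPM. Genes named below as higher or lower at an unadjusted p all had an adjusted p of 0.927 (limma), and none passed the adjusted test.

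The balance between higher and lower genes was not the same under every scaling. With TPM as deposited the median difference over all genes was -0.06, and 78.4% of genes lay below 0. After median-ratio scaling, in which each library is set to a common median ratio over genes, the median was 0.0021, and 185 genes were higher (1.39%) and 110 lower (0.827%) at an unadjusted p under 0.05, 2.22% in all. Quantile normalization gave 114 higher and 88 lower genes. Both of these centre the differences near 0 by construction, so they give changes relative to the median gene. Rescaling without mitochondrially encoded genes, which does not centre them, gave 64 higher and 382 lower. Of the 542 lower genes, 106 kept an unadjusted p under 0.05 in the same direction after median-ratio scaling, as did 42 of the 42 higher genes. The scaling factors of Control + rFibcd1 replicates 3 and 4 were the lowest of the 10, at 0.875 and 0.856, against 0.948 to 1.04 in the others. Single mice moved the count as well. Without Control + rFibcd1 replicate 1, 1124 genes had an unadjusted p under 0.05, 43 higher and 1081 lower, and without replicate 2 the count was 682, 52 higher and 630 lower.

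**Figure D1:**
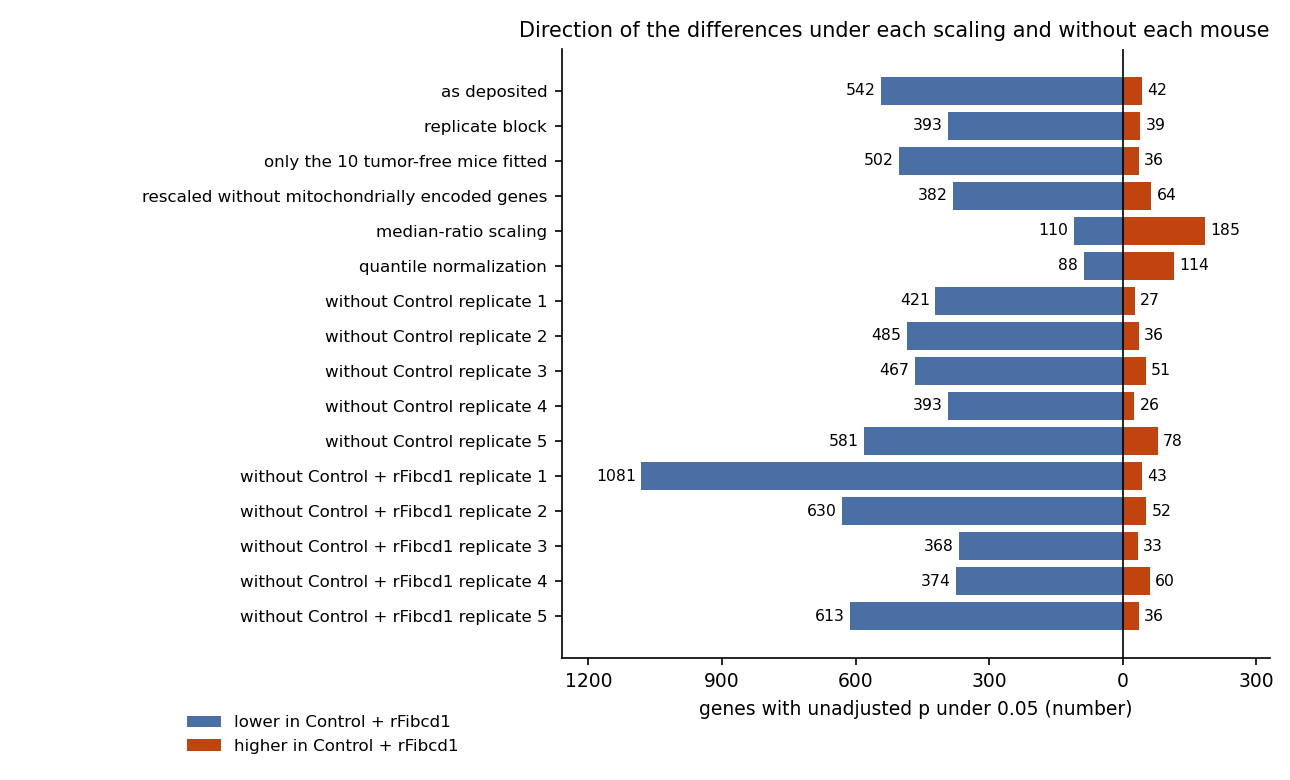
Number of genes with an unadjusted p under 0.05 (horizontal axis), lower in Control + rFibcd1 to the left and higher to the right, for the TPM as deposited, for other fits and scalings, and without each of the 10 mice. The bars lean to the lower side (542 against 42 as deposited) in every fit shown except median-ratio scaling (110 against 185) and quantile normalization (88 against 114).

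Complete separation of the groups showed the same lean. In 108 genes (0.812%) the 5 mice of a group all lay beyond the 5 mice of the other, 1 higher after rFibcd1 (0.00752%; Fam234b, named after its value was seen) and 107 lower (0.804%), and after median-ratio scaling these were 23 higher and 12 lower. Of the genes chosen by the naming rule, 5 kept an unadjusted p under 0.05 in the same direction under each of the 22 alternatives run for them, namely Saa3, Spry4, Bhlhe40, Slc23a2 and Nudt14.

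Saa3, an acute-phase serum amyloid A protein that macrophages and adipocytes make in inflammation, had the largest higher value past the cutoff. It was at 86.4, 32.4, 28.2, 11.6 and 23.45 TPM in Control + rFibcd1 replicates 1 to 5, and at 9.29, 3.73, 8.26, 21.4 and 4.91 in Control replicates 1 to 5. In the rFibcd1 group 4 of 5 mice lay above every Control mouse, replicate 4 lay below Control replicate 4, and replicate 1 stood far above the rest. The difference was 1.76 ± 0.50 (log2, SE; unadjusted limma p = 0.00309, exact permutation p = 0.0159). Without replicate 1, which also had the highest leukocyte sum, it was 1.38, and without replicate 2 it was 1.72. Saa3 lies on chromosome 7, 46711998 to 46715700 (GRCm38). Between LLC + rFibcd1 and LLC its difference was -1.35, and the interaction had an adjusted p of 0.166 (limma).

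Bcl6b, a transcriptional repressor found in endothelium and lymphocytes, was one of the lower genes past the cutoff. It was at 5.02, 4.37, 4.90, 7.16 and 3.99 TPM after rFibcd1 and at 15.6, 7.01, 8.075, 18.76 and 4.76 in Control. Control replicates 2 and 5 lay within the range of the rFibcd1 mice, and Control replicates 1 and 4 carried most of the distance. The difference was -0.83 ± 0.28 (unadjusted limma p = 0.00925, exact permutation p = 0.0556). Also lower past the cutoff were the immunoglobulin segment Igkv6-20 (-2.21), whose reads near-identical segments can share, and the predicted gene Gm2274 (-0.92), which was listed at 0 in all 5 rFibcd1 mice and in Control replicates 1 and 3. The other higher genes were Pagr1a (1.23), a cofactor of histone methylation, the histone H4 gene Hist1h4m (0.62) from a multicopy family, and the unnamed transcript RP24-416M6.5 (0.73). Gm2274, Pagr1a, Hist1h4m and RP24-416M6.5 averaged under 5 TPM in both groups.

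**Figure D2:**
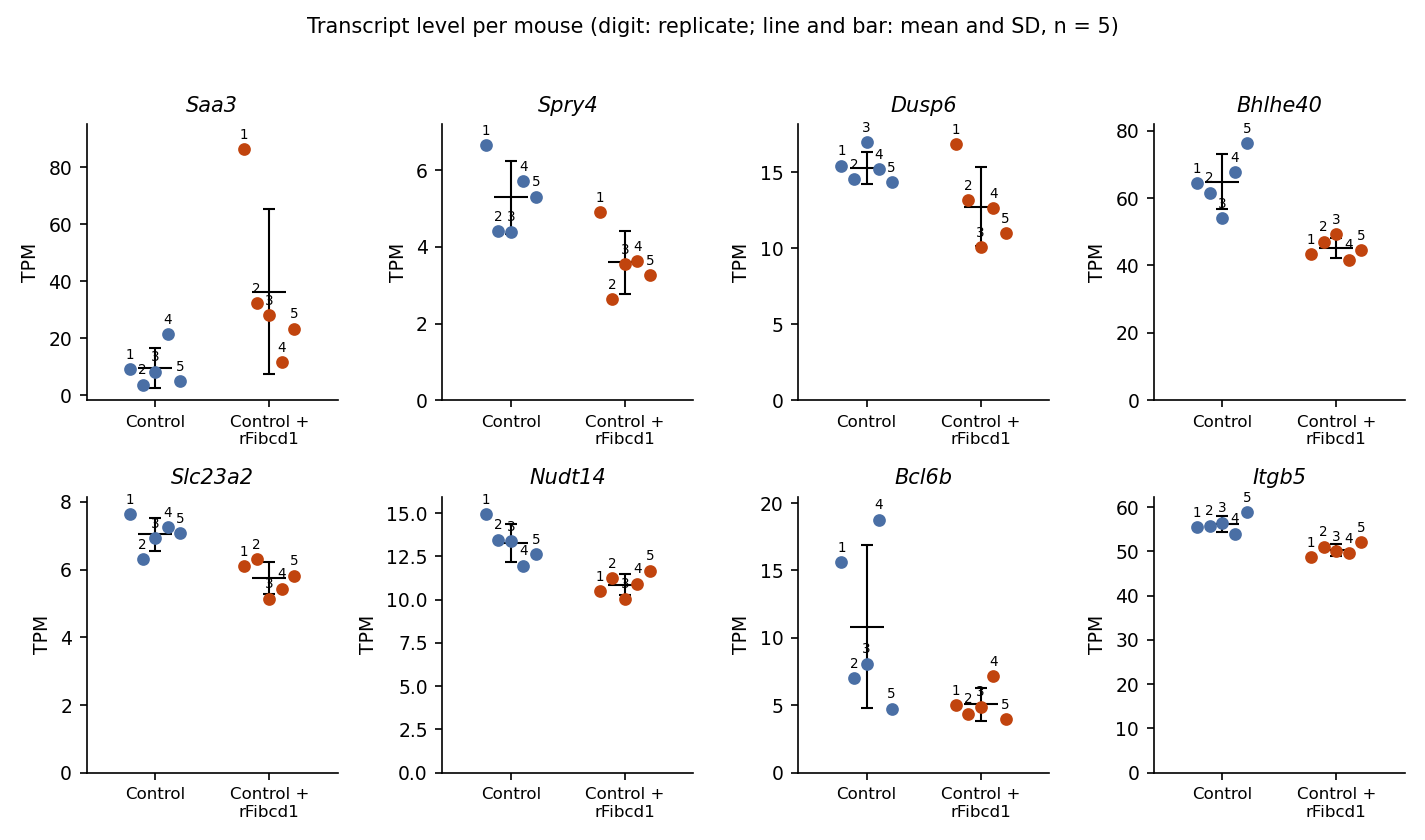
TPM per mouse (vertical axis, from 0) of 8 genes in Control and Control + rFibcd1, where each point is a mouse with its replicate number, and the line and bar give the mean and SD of 5 mice. Bhlhe40, Nudt14, Slc23a2 and Itgb5 do not overlap between the groups, although 2 mice meet at 6.3 TPM in Slc23a2, while Saa3, Spry4, Dusp6 and Bcl6b overlap.

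Among genes with a mean of at least 5 TPM in either group whose groups did not overlap, none was higher after rFibcd1, and the 6 lower ones with the smallest p were Tmem11, Bbs2, Pithd1, Itgb5, Nudt14 and Slc23a2. Their differences were small, from -0.14 in Pithd1 to -0.26 in Nudt14, and each had an exact permutation p of 0.00794, the smallest that 252 splits of the 10 mice allow and the value that groups without overlap must give. Slc23a2, the sodium-dependent vitamin C transporter of most tissues, was at 6.10, 6.30, 5.14, 5.43 and 5.82 TPM after rFibcd1 and at 7.64, 6.30, 6.93, 7.25 and 7.07 in Control. The highest rFibcd1 mouse and the lowest Control mouse were level to the digits shown, at 6.3 TPM. Nudt14, a nucleoside diphosphate-sugar hydrolase, was at 10.5, 11.2, 10.1, 10.9 and 11.7 TPM after rFibcd1 and at 14.95, 13.45, 13.38, 11.96 and 12.63 in Control. Bbs2, a subunit of the ciliary BBSome, averaged 4.45 ± 0.256 TPM after rFibcd1 and 5.42 ± 0.323 in Control (SD, n = 5). Tmem11, a protein of the mitochondrial inner membrane that shapes cristae, averaged 35.6 ± 1.07 and 40.1 ± 2.07 TPM in the same order (SD, n = 5). After median-ratio scaling the differences of Tmem11 and Pithd1 no longer had an unadjusted p under 0.05 (0.186 and 0.201), and that of Itgb5 did not either (0.269). After quantile normalization that of Bbs2 did not (0.0654) and that of Pithd1 did not (0.177).

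Of the 651 list members tested over all 39 lists, 28 had an unadjusted p under 0.05 (4.30%), against 4.39% of all genes. The counts per list below stand beside 4.07% lower and 0.316% higher genes as deposited, 0.827% and 1.39% after median-ratio scaling, 8.12% and 0.323% without Control + rFibcd1 replicate 1, and 4.74% and 0.391% without replicate 2.

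The ligand itself was almost silent as a transcript. Fibcd1 reached at most 0.0352 TPM in any of the 17 mice and fell under the filter, so endogenous Fibcd1 could not be compared between the groups, and the injected protein leaves no RNA. Among other genes with a fibrinogen-like domain, 0 of 15 tested members had an unadjusted p under 0.05, with differences from -0.28 (Angpt1, an angiopoietin of vessel stability) to 0.53 (Fga, a fibrinogen chain of the liver). Fga was at 79.6 TPM in Control + rFibcd1 replicate 2, the mouse with the highest liver-derived sum, and at 7.30 or less in the other 9 mice. Without that mouse 1 member was lower at an unadjusted p under 0.05, the differences ran from -0.68 to 0.28, and the median was -0.20 against -0.12 with all mice.

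Of 18 integrin genes tested, 1 was lower at an unadjusted p under 0.05 (4.07% of all genes) and 0 were higher, and 14 had an interval within a 1.5-fold change. The lower gene was Itgb5, the beta subunit that pairs with Itgav to bind vitronectin. It was at 48.7, 51.05, 49.97, 49.6 and 52.1 TPM after rFibcd1 and at 55.4, 55.8, 56.4, 54.0 and 58.9 in Control. The groups did not overlap as deposited, and the difference of -0.16 ± 0.04 (unadjusted limma p = 0.00153, exact permutation p = 0.00794) became -0.08 after median-ratio scaling. Itga2b and Itgb3, the subunits of the platelet fibrinogen receptor, differed by 0.32 ± 0.27 and 0.0020 ± 0.20. Itga7 and Itgb1, the subunits of the laminin receptor of the myofiber, differed by -0.04 ± 0.05 and -0.02 ± 0.06 with intervals from -0.15 to 0.07 and from -0.16 to 0.12. Itgam was not analysed here.

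Components of the ERK cascade differed little between the groups. Of 24 genes, 23 had an interval within a 1.5-fold change. Mapk3, which encodes ERK1, differed by -0.05 ± 0.11. Hras, a Ras GTPase, was higher by 0.10 ± 0.04 (unadjusted limma p = 0.0409, exact permutation p = 0.0476), and Ksr1, a scaffold that holds Raf, MEK and ERK together, was lower by 0.13 ± 0.06 (unadjusted limma p = 0.0354, exact permutation p = 0.0159). After median-ratio scaling the p of Hras was 0.00964 and that of Ksr1 was 0.555. Hras did not pass in 8 of 22 alternatives, among them the fit without Control + rFibcd1 replicate 1 (0.0967).

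ERK output and feedback genes gave 3 lower and 0 higher members of 19 at an unadjusted p under 0.05, beside 4.07% lower among all genes, and the median of the list was -0.12 against -0.06 over all genes. All 3 were inhibitors of the cascade, a class that also holds the other Dusp, Sprouty and Spred members of the list. The count was 6 without Control + rFibcd1 replicate 1 (8.12% of all genes were then lower), 2 without replicate 2 (4.74%) and 2 after median-ratio scaling (0.827%). Spry4, a Sprouty protein that blocks Ras and Raf activation, was at 4.91, 2.64, 3.54, 3.62 and 3.27 TPM after rFibcd1 and at 6.66, 4.41, 4.40, 5.72 and 5.31 in Control. After rFibcd1 4 of 5 mice lay below all Control mice, and replicate 1 lay above 2 of them. The difference was -0.46 ± 0.13 (unadjusted limma p = 0.00296, exact permutation p = 0.0238), and it was -0.55 without replicate 1 and -0.38 without replicate 2.

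Dusp6, the phosphatase that removes the activating phosphates of ERK in the cytoplasm, was at 16.8, 13.2, 10.1, 12.6 and 10.96 TPM after rFibcd1 and at 15.4, 14.5, 16.9, 15.2 and 14.3 in Control. Replicate 1 again lay within the Control range, and the other 4 rFibcd1 mice lay below it. Dusp6 differed by -0.26 ± 0.10 (unadjusted limma p = 0.0199, exact permutation p = 0.0794), and without replicate 1 the difference was -0.36. Spred2, a Sprouty-related inhibitor of Raf, was between 7.275 and 8.11 TPM after rFibcd1 and between 8.30 and 9.88 in Control, with no overlap, and its difference of -0.15 ± 0.06 became -0.09 after median-ratio scaling. Spry4 and Dusp6 kept an unadjusted p under 0.05 under each of the 3 other scalings, Dusp6 lost it in 5 of 22 alternatives, 3 of them without a mouse, and Spred2 did not under median-ratio scaling (0.208) or quantile normalization (0.287). Etv5, an ETS factor induced by ERK, differed by -0.12 ± 0.08, and the remaining Sprouty, Spred and Dusp members of the list did not reach an unadjusted p under 0.05.

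Immediate early genes varied widely between mice. Of 25 tested, 1 was lower at an unadjusted p under 0.05, beside 4.07% of all genes, 0 were higher, and 7 had an interval within a 1.5-fold change. Without Control + rFibcd1 replicate 1, 6 were lower, beside 8.12% of all genes, and 0 were lower without replicate 2, after median-ratio scaling or after quantile normalization. Ier2, a nuclear protein of the first transcriptional wave, was at 19.4, 9.59, 11.65, 10.04 and 10.84 TPM after rFibcd1 and at 20.1, 12.7, 15.1, 17.9 and 12.9 in Control. Egr1, a zinc finger factor induced through ERK, was at 26.8, 2.90, 6.01, 2.21 and 4.57 TPM after rFibcd1 and at 17.7, 4.17, 11.7, 18.4 and 7.02 in Control. Both genes were highest among the rFibcd1 mice in replicate 1. The difference of Ier2 was -0.35 ± 0.16 (unadjusted limma p = 0.0397, exact permutation p = 0.119) and -0.52 without replicate 1, and that of Egr1 was -0.76 ± 0.53 with all mice (unadjusted limma p = 0.171, exact permutation p = 0.27) and -1.275 without replicate 1 (unadjusted limma p = 0.00767). Fos, a partner of Jun in the AP-1 factor, differed by -0.10 ± 0.54.

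**Figure D3:**
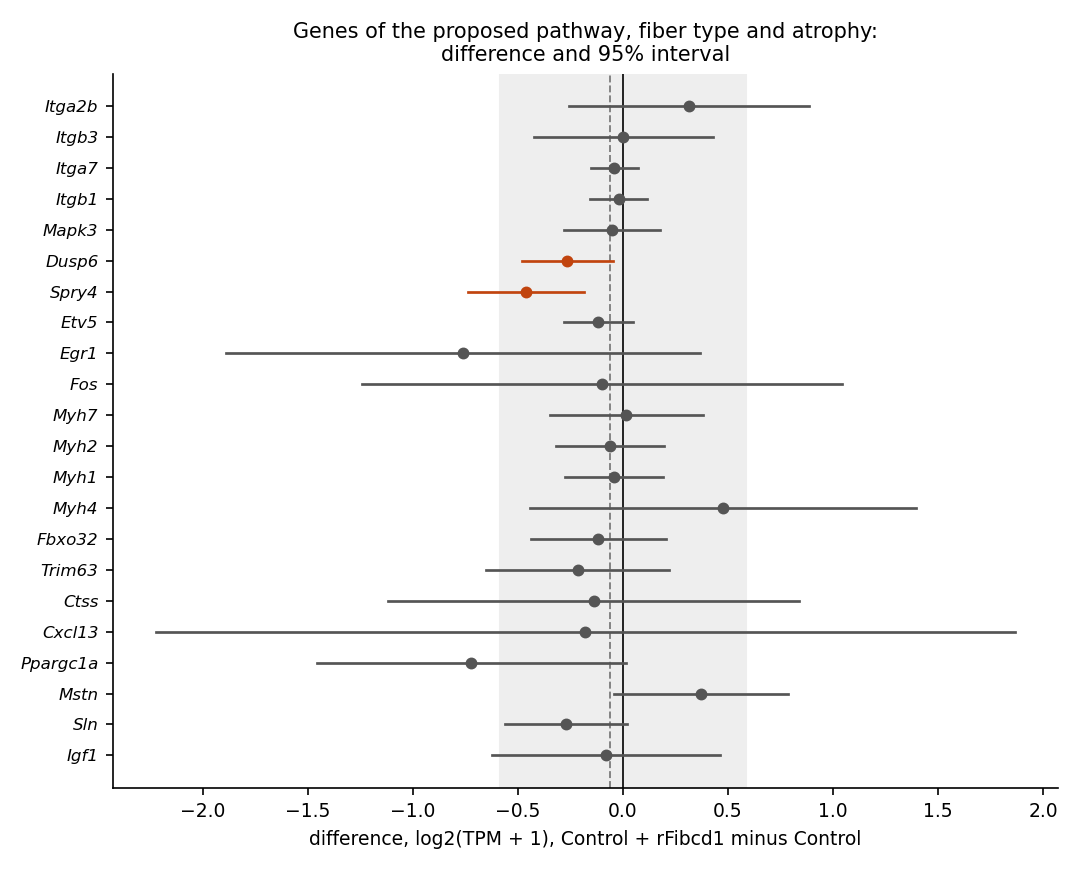
Difference on the log2(TPM + 1) scale (horizontal axis, points) with its 95% interval (lines) for 22 genes of the proposed pathway, fiber type and atrophy, where orange marks an unadjusted p under 0.05, grey shading a 1.5-fold change and the dashed line the median of all genes. Only Dusp6 and Spry4 of these genes exclude 0, and the intervals of Cxcl13, Egr1, Fos and Ctss are the widest.

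Clock genes gave 1 lower member of 18 at an unadjusted p under 0.05, beside 4.07% of all genes, and 0 higher. This was Bhlhe40, a repressor of the circadian clock that also responds to hypoxia and contraction. It was at 43.4, 47.0, 49.3, 41.7 and 44.6 TPM after rFibcd1 and at 64.4, 61.6, 54.0, 67.7 and 76.3 in Control. Every rFibcd1 mouse lay below every Control mouse, with a gap between 49.3 and 54.0 TPM. The difference was -0.50 ± 0.15 (unadjusted limma p = 0.00419, exact permutation p = 0.00794), and -0.43 after median-ratio scaling. Bhlhe40 lies on chromosome 6, 108660629 to 108666925 (GRCm38). The clock genes nearest to it in size were Ciart (-0.48), Nr1d1 (-0.43) and Bhlhe41 (-0.26), and none of these had an unadjusted p under 0.05. The labels give no time of dissection.

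Genes of the PGC-1 program and of fatty acid oxidation gave 5 lower and 0 higher members of 29 at an unadjusted p under 0.05, beside 4.07% lower among all genes. Of the 29 differences 28 lay below 0, as did 78.4% of all genes, and the median was -0.10. After median-ratio scaling 21 lay below 0, as did 48.9% of all genes, and 0 members were lower at an unadjusted p under 0.05. After quantile normalization 25 lay below 0 (50.5% of all genes) and 2 were lower, where 88 of all genes tested were. Without mitochondrially encoded genes 27 lay below 0 (73% of all genes) and 2 were lower, where 382 of all genes tested were. The count of lower members was 1 without Control + rFibcd1 replicate 1 (8.12% of all genes) and 6 without replicate 2 (4.74%). Pdk4, the kinase that closes pyruvate dehydrogenase in fasting, was at 301, 360.9, 374.6, 289 and 265.5 TPM after rFibcd1 and at 393.5, 272.3, 810.1, 589.8 and 388.4 in Control. Ucp3, a mitochondrial carrier induced by fatty acids, averaged 42.8 ± 9.92 TPM after rFibcd1 and 64.6 ± 21.2 in Control (SD, n = 5). In both genes the groups overlapped, and the spread was wider among the Control mice. Their differences were -0.53 ± 0.23 and -0.55 ± 0.23 (unadjusted limma p = 0.035 and 0.0288, exact permutation p = 0.103 and 0.0952), and after median-ratio scaling neither passed (0.079 and 0.0735). Acadm, Hadha and Hadhb, enzymes of beta-oxidation in the mitochondrion, were lower by 0.12 to 0.15 and did not pass after median-ratio scaling. Ppargc1a, the coactivator that drives this program, was at 16.4, 20.6, 24.3, 10.1 and 17.4 TPM after rFibcd1 and at 14.8, 39.2, 33.6, 16.1 and 62.1 in Control. Control replicates 2, 3 and 5 lay above all rFibcd1 mice and Control replicates 1 and 4 among them, and the difference was -0.72 ± 0.35 (unadjusted limma p = 0.054, exact permutation p = 0.143).

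Glycolysis and glycogen genes gave 3 higher members of 21, beside 0.316% higher among all genes. Gapdh, Eno3 and Phka1 were higher at an unadjusted p under 0.05, Fbp2 was lower, and 20 of 21 genes had an interval within a 1.5-fold change. Gapdh, a glycolytic enzyme, was at 1453, 1318, 1395, 1425 and 1314 TPM after rFibcd1 and at 1240, 1177, 1355, 1220 and 1344 in Control. The groups overlapped only through Control replicates 3 and 5, and the difference was 0.12 ± 0.05 (unadjusted limma p = 0.0158, exact permutation p = 0.0476). Phka1, a regulatory subunit of the phosphorylase kinase that starts glycogen breakdown in muscle, averaged 59.9 ± 14.1 and 45.6 ± 8.92 TPM (SD, n = 5), a difference of 0.38 ± 0.15. Eno3, the muscle enolase, differed by 0.19 ± 0.08. Gapdh, Eno3 and Phka1 kept an unadjusted p under 0.05 after median-ratio scaling. Eno3 did not after quantile normalization (0.147), and Fbp2 did not under any of the 3 other scalings. After median-ratio scaling 5 members of the list were higher, beside 1.39% of all genes. The count was 2 after quantile normalization and 3 without mitochondrially encoded genes. Without Control + rFibcd1 replicate 1, 1 member was higher, and without replicate 2, 5 were.

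Respiratory chain genes had narrow intervals. All 35 nuclear-encoded subunits tested had an interval within a 1.5-fold change, with differences from -0.10 to 0.06, and Ndufa2, a subunit of complex I, was lower by 0.07 ± 0.03. After median-ratio scaling Ndufa2 differed by 0.0072. All 13 mitochondrially encoded genes also had an interval within a 1.5-fold change, and mt-Nd6 was higher by 0.28 ± 0.12 (unadjusted limma p = 0.0351, exact permutation p = 0.103). It did not pass without Control + rFibcd1 replicate 1 (0.0544) or without replicate 2 (0.11). mt-Nd6 lies on the other strand from its neighbours, and the sources differ on whether the libraries marked the strand, so its reads may include those of the opposite strand.

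Fiber-type genes gave 0 higher and 0 lower members of 26, and 24 of them had an interval within a 1.5-fold change. After median-ratio scaling 2 members were higher at an unadjusted p under 0.05 (1.39% of all genes), and without Control + rFibcd1 replicate 2 also 2 (0.391%). The list held 57330 to 65580 TPM after rFibcd1 and 59370 to 63740 in Control. Myh7 of type 1 fibers, Myh2 of type 2a and Myh1 of type 2x differed by 0.02 ± 0.17, -0.06 ± 0.12 and -0.04 ± 0.11. Myh4 of type 2b was the exception in precision, at 1349, 664.1, 1338, 1804 and 680.2 TPM after rFibcd1 and at 1582, 855.2, 977.9, 246.2 and 863.5 in Control, with a difference of 0.48 ± 0.43 and an interval from -0.44 to 1.39. Actin, titin and Z-disc genes gave 0 of 20, of which 19 had an interval within a 1.5-fold change. Sln, sarcolipin, which inhibits the calcium pump of the sarcoplasmic reticulum, averaged 762 ± 92.5 TPM after rFibcd1 and 918 ± 94.3 in Control (SD, n = 5), a difference of -0.27 ± 0.14 (unadjusted limma p = 0.065, exact permutation p = 0.0397).

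Genes of protein breakdown differed in how closely they were measured. Of 21 ubiquitin ligases linked to atrophy, Trim32, which acts on desmin and thin filaments, was lower by 0.15 ± 0.07 (unadjusted limma p = 0.0493, exact permutation p = 0.0317), and 20 had an interval within a 1.5-fold change. No ligase was lower at an unadjusted p under 0.05 after median-ratio scaling or quantile normalization. Fbxo32 (atrogin-1) was at 79.6, 78.7, 91.5, 73.1 and 61.5 TPM after rFibcd1 and at 92.5, 70.5, 73.7, 87.2 and 93.1 in Control, a difference of -0.12 ± 0.15. Trim63 (MuRF1) differed by -0.22 ± 0.20, with an interval from -0.65 to 0.22. All 23 autophagy genes had an interval within a 1.5-fold change, and Ulk1, the kinase that starts autophagy, Map1lc3b, a coat protein of autophagosomes, and Tfeb, the master factor of lysosomal genes, were lower by 0.18, 0.10 and 0.13, beside 4.07% lower among all genes. None of the 3 passed after median-ratio scaling. Cathepsins gave 0 of 14, of which 9 had an interval within a 1.5-fold change. Ctss, the cathepsin of macrophages, was at 85.8, 24.1, 14.6, 12.5 and 31.2 TPM after rFibcd1 and at 33.9, 51.8, 24.0, 26.2 and 18.2 in Control, and its interval ran from -1.12 to 0.84.

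Growth signaling genes (insulin, IGF, FoxO and myostatin) gave 2 lower and 0 higher members of 31, beside 4.07% lower among all genes. Akt2, a kinase downstream of insulin, and Igf1r, the IGF receptor, were lower by 0.09 ± 0.04 and 0.16 ± 0.07 and did not pass after median-ratio scaling. Mstn, which encodes myostatin, the secreted inhibitor of muscle growth, was at 21.1, 21.9, 28.2, 37.3 and 36.4 TPM after rFibcd1 and at 29.0, 21.5, 19.6, 20.8 and 18.1 in Control. Replicates 4 and 5 of the rFibcd1 group lay above all Control mice, and the other 3 lay within the Control range. Mstn differed by 0.37 ± 0.20 (unadjusted limma p = 0.0762, exact permutation p = 0.103), and the unadjusted p was 0.0316 without Control + rFibcd1 replicate 1 and 0.0396 without replicate 2. Of 24 satellite cell, myogenic and neuromuscular junction genes, all had an interval within a 1.5-fold change, and Mef2d, a myogenic transcription factor, and Colq, the collagen tail of acetylcholinesterase at the junction, were lower by 0.12 ± 0.04 and 0.30 ± 0.11. Neither passed after median-ratio scaling. Glucocorticoid targets gave 0 of 20 with a median of 0.09, which was 0.02 without Control + rFibcd1 replicate 1. Heat shock and stress genes gave 1 lower member of 24, the antioxidant enzyme Nqo1 (-0.26 ± 0.12), which did not pass under any of the 3 other scalings.

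**Figure D4:**
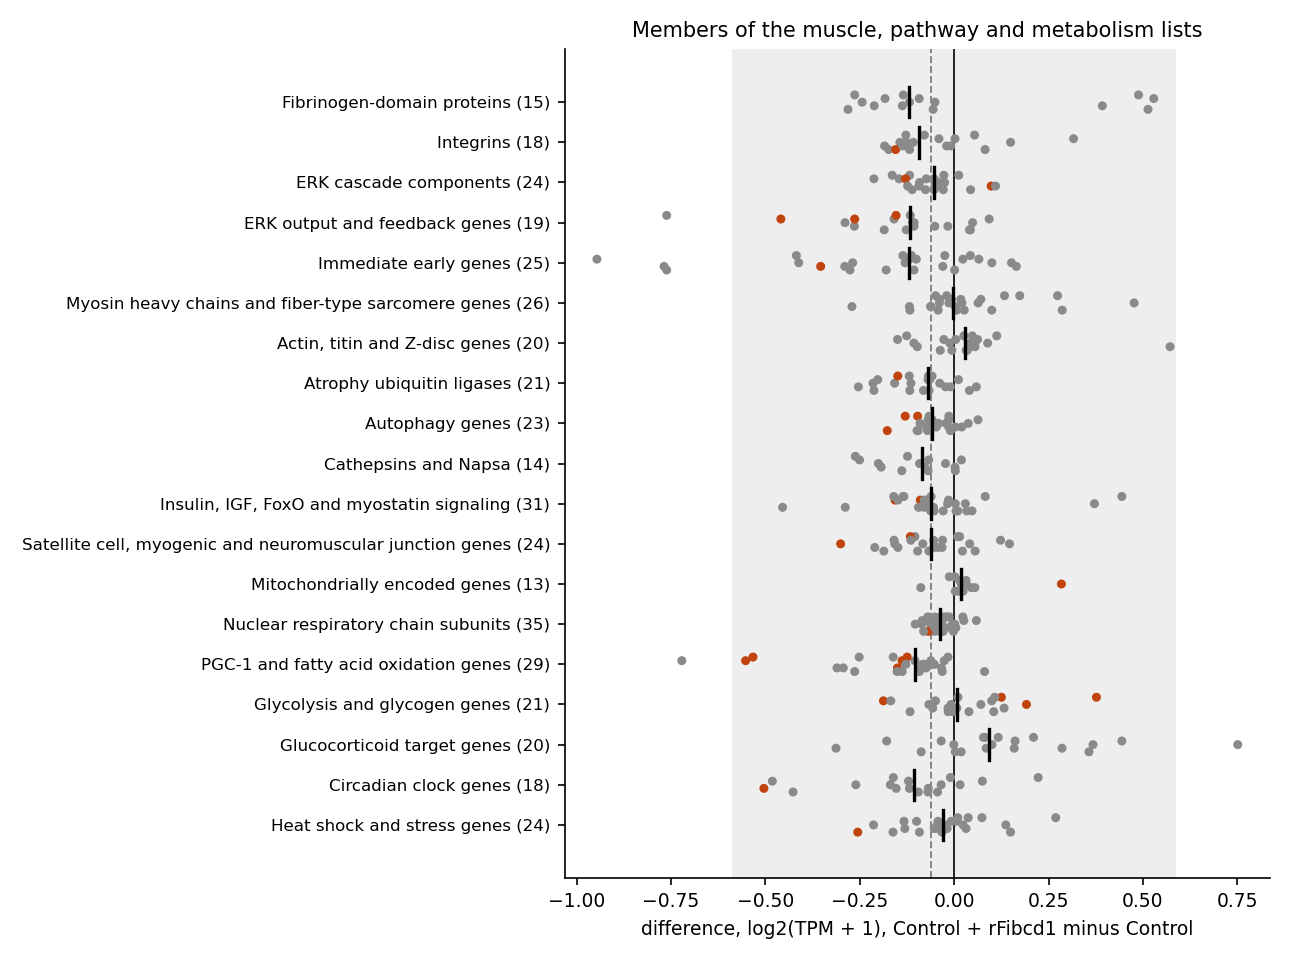
Difference of each member of the pathway, muscle and metabolism lists on the log2(TPM + 1) scale (horizontal axis, 1 point per gene), with the number of tested members in brackets, the list median as a black bar, an unadjusted p under 0.05 in orange, a 1.5-fold change as grey shading and the median of all genes as a dashed line. Respiratory chain and autophagy genes sit in narrow bands, and immediate early genes spread farthest of the lists shown, down to -0.95 in Nr4a3.

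Transcripts of other cell types differed more between mice than between groups. No member of the cell type lists had an unadjusted p under 0.05, and the summed level overlapped between the groups in every list. Without Control + rFibcd1 replicate 1, the lower members at an unadjusted p under 0.05 were 6 of 12 eosinophil, mast cell and alternative activation genes, 2 of 23 fibroblast, 2 of 18 interferon-stimulated, 2 of 23 cytokine, 1 of 13 mesothelial and 1 of 13 proliferation genes, beside 8.12% of all genes. The median of the eosinophil, mast cell and alternative activation list was then -0.54, against -0.30 with all mice. B cell genes summed to 192.2, 19.96, 4.675, 9.154 and 39.16 TPM after rFibcd1 and to 108.6, 134.3, 29.32, 41.1 and 3.156 in Control. All 13 members lay below 0, with a median of -0.42, and 0 of them had an interval within a 1.5-fold change. Without Control + rFibcd1 replicate 1 the median was -0.94. T and NK cell genes (13 of 13 below 0, median -0.26) and mesothelial genes, which mark the serous lining of the diaphragm (13 of 13, median -0.41), leaned the same way with sums that overlapped, while 78.4% of all genes lay below 0. Proliferation genes (13 of 13) and Schwann cell and nerve genes (9 of 9) also all lay below 0. Without Control + rFibcd1 replicate 1 the medians of the T and NK cell and mesothelial genes were -0.50 and -0.61. The mesothelial sums were lowest in Control + rFibcd1 replicates 3 and 4 (161.5 and 107.2 TPM, against 242.5 to 412.9 in the other 8 mice).

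Among chemokines and cytokines 0 of 23 passed. Cxcl13, the chemokine that draws B cells, was at 63.1, 15.8, 2.65, 7.197 and 20.8 TPM after rFibcd1 and at 32.7, 85.2, 13.95, 15.1 and 0.864 in Control, and its interval ran from -2.22 to 1.87. Neutrophil genes had a median of 0.30, which was 0.19 without Control + rFibcd1 replicate 1 and 0.49 without replicate 2, with sums of 7.18 to 85.7 TPM after rFibcd1 and 8.27 to 20.03 in Control. The highest sum was that of Control + rFibcd1 replicate 3, in which S100a9, an alarmin of neutrophils, was at 46.3 TPM. Liver-derived transcripts had a median of 0.23 with all mice, 0.76 without Control + rFibcd1 replicate 1 and -1.33 without replicate 2. The parts that these cell types have in the differences of Saa3, Bcl6b, Igkv6-20 and the other genes above were not tested.

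**Figure D5:**
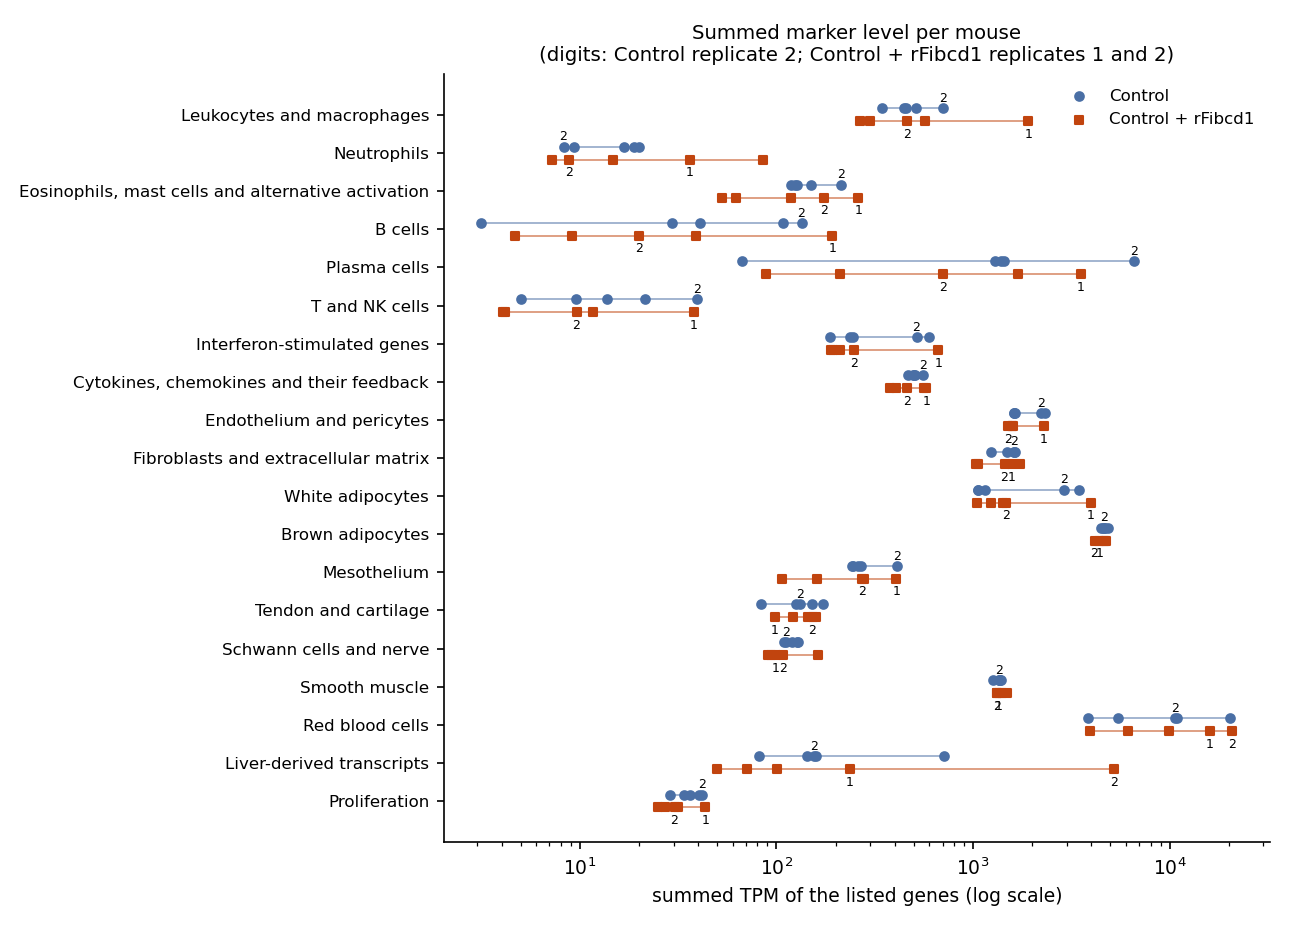
Summed TPM of each cell type list per mouse (horizontal axis, log scale), with Control as blue circles, Control + rFibcd1 as orange squares, and thin lines from the lowest to the highest mouse. The groups overlap in every list, Control + rFibcd1 replicate 1 is the highest of its group in leukocytes (1910 TPM) and B cells, and replicate 2 is the highest in liver-derived transcripts (5196 TPM).

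The response to rFibcd1 in tumor-free mice was set against that in mice with LLC tumors by the interaction of tumor and rFibcd1. No gene passed an adjusted p under 0.05 (0 of 13305, 0.00%; smallest adjusted p = 0.0588, limma), and 1142 genes (8.58%) had an unadjusted p under 0.05. Without LLC replicate 2 the adjusted test gave 11 genes, without LLC + rFibcd1 replicate 2 it gave 3, and after median-ratio scaling it gave 1. Tmem171, a transmembrane protein of unknown role, Cbfa2t3, a corepressor of the ETO family, and Ndufa2 had the smallest p. Tmem171 differed by -0.30 ± 0.15 in tumor-free mice and by 1.18 in mice with tumors, with an interaction of 1.48 (adjusted p = 0.0588, limma). Sln gave an interaction of 1.26 at the same adjusted p, from -0.27 in tumor-free mice and 0.99 in mice with tumors. Ppargc1a (-0.72 and 0.86), Mstn (0.37 and -0.60) and Bhlhe40 (-0.50 and 0.21) also had opposite signs in the 2 settings, with adjusted interaction p of 0.331, 0.266 and 0.30 (limma). For Spry4 and Dusp6 the signs were the same (-0.18 and -0.09 in mice with tumors), and the unadjusted interaction p were 0.185 and 0.302.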

How the data were processed

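RNA from the diaphragm of 17 mice was sequenced, and 10 tumor-free mice are compared here. Per the study's methods, reads were trimmed, filtered for length and quality, and mapped to GRCm38 (mm10 in the submitters' processing notes) with CLC Genomics Workbench, which also quantified genes. Values were deposited as TPM, in which the authors scaled each sample to 1000000 after division by gene length, mitochondrial transcripts included. The labels name a stranded kit and the methods an unstranded one, so antisense and overlapping genes are uncertain.

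Groups came from sample titles, and 0 columns were left without a sample. The 13305 genes that reached 1 TPM in 3 or more samples were fitted as log2(TPM + 1) by limma 3.58.1 in R 4.3.3, with 4 groups, 13 residual degrees of freedom, a trended prior and two-sided tests. P-values were adjusted by Benjamini-Hochberg over all genes. limma took the place of the study's Kruskal-Wallis and Dunn tests. Dunn's test on ranks over the 4 groups, without the Kruskal-Wallis step, was kept as an alternative. Exact permutation tests used all 252 splits of the 10 mice. Read depth was estimated from the steps of low values, of which 79.5% to 80.9% per sample fell within 0.02 of a whole read, with exon lengths from GENCODE vM21 (94.6% of symbols matched). The test was checked on simulated data.

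Named genes were those past the cutoff, up to 6 per direction without overlap at 5 TPM or more, 24 genes of the proposed pathway, list members with an unadjusted p under 0.05, the most abundant members of other lists, and the 3 smallest interaction p. Some genes under this rule are not reported here. The members and the 39 lists were chosen with earlier results of these data known. Replicate numbers did not pair the mice.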

Additional observations from a re-analysis of the deposited data

Results flagged for a closer look

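Within groups of 5 mice, a value was singled out where its gap to the nearest other mouse exceeded the 95% critical share of the range in Dixon's test. Of 136 groups tested over 48 genes, 19 cell type sums and the mitochondrial share, 19 held such a value, where chance gives about 1 in 20.

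Most of these values came from Control + rFibcd1 replicate 1. It was high in Saa3 (86.41 TPM), Ier2 (19.36), Egr1 (26.82), Ctss (85.83), Cd79a of the B cell receptor (55.43) and Lyz2, a lysozyme of macrophages (1459). Its sums were high for leukocytes and macrophages (1910 TPM), B cells (192.2), T and NK cells (37.93), interferon-stimulated genes (665.9), endothelium and pericytes (2296) and white adipocytes (3986). Control + rFibcd1 replicate 2 was high in Alb, serum albumin (1934 TPM), and in liver-derived transcripts as a whole (5196). Control replicate 4 was high in the same measures, with 171 TPM of Alb and a sum of 714.7. Control replicate 2 was high in plasma cell transcripts (6617 TPM) and mesothelial transcripts (412.9), and Control + rFibcd1 replicate 5 in Schwann cell and nerve transcripts (163.4). The part of these mice in the differences between the groups was examined by leaving each out, and the reason for their values was not tested.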

How the results depend on the processing

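No gene passed an adjusted p under 0.05 (limma) in any of the other 11 fits or without any of the 10 mice. Genes with an unadjusted p under 0.05 numbered 584 as deposited, 202 after quantile normalization, 295 after median-ratio scaling, 322 by Dunn's test and 401 (without Control + rFibcd1 replicate 3) to 1124 (without Control + rFibcd1 replicate 1) without a mouse. Genes past the cutoff were 8 as deposited, 28 with a pseudocount of 0.1, 3 at 5 TPM or more, 17 with array weights, 4 by Dunn's test and 10 to 32 without a mouse. Genes without overlap were 108 as deposited, 35 after median-ratio scaling, 65 without mitochondrially encoded genes, 21 after quantile normalization (an alternative added after seeing the data) and 151 to 463 without a mouse, where a group has fewer mice. Intervals within a 1.5-fold change held for 11497 genes as deposited, for 10254 with a pseudocount of 0.1, and for 20763 without the filter, in which more genes are tested. The median difference over all genes was -0.06 as deposited. This was smaller than the SD of single mice (0.0642), but a difference between group means varies less than single mice do. It was 0.0021 after median-ratio scaling, which centres it, and -0.092 to -0.0333 without a mouse. The interaction gave 1 gene without the filter, 1 after median-ratio scaling, 1 after quantile normalization, 12 with array weights and 0 to 11 without a mouse (11 without LLC replicate 2). With the replicate block, 432 genes had an unadjusted p under 0.05 and 0 an adjusted one, the cutoff was passed by 11 genes, and the interaction gave 0. Same-numbered mice correlated from -0.33 to 0.48 in their deviations, over 0.1 in 1 of 5 pairs, so the mice share only a number. Of 42 named genes with an unadjusted p under 0.05, 5 kept it in every alternative and 22 in the exact permutation test, and Ndufa2 reversed to 0.0072 after median-ratio scaling. List counts under other scalings and without Control + rFibcd1 replicates 1 and 2 were added after seeing the data. At 1 TPM a gene of 1000 bases holds at least 23.9 reads, and with 5 mice a group the median interval reached 0.199 (log2) to either side.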

Other observations

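A set of 28 genes (0.21% of those tested; 5 higher and 23 lower, 8 without overlap) had an unadjusted p under 0.05 in the same direction in each of 22 fits, across fits, filters, scalings and every left-out mouse. The set was drawn after its values were seen, and each gene had an adjusted p of 0.927 (limma) as deposited. The members are of mixed function, and those given here were picked as genes with a known role in muscle or signaling. Mrln, myoregulin, an inhibitor of the calcium pump, averaged 14.3 ± 2.63 TPM after rFibcd1 and 19.6 ± 0.414 in Control (SD, n = 5), without overlap. Tmem38b, a cation channel of the sarcoplasmic reticulum, averaged 42.8 ± 2.83 and 38.5 ± 1.84. Tbc1d4, the Akt substrate that holds back the glucose transporter Slc2a4, averaged 35.8 ± 3.71 and 44.7 ± 5.94, and Slc25a22, a mitochondrial glutamate carrier, 21.1 ± 3.89 and 32.15 ± 9.02.

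The growth factors Fgf1 (-0.24 ± 0.06, log2, SE) and Vegfc (-0.35 ± 0.12), a ligand of lymphatic vessels, and Klf10, a factor induced by TGF-beta (-0.42 ± 0.12), were among the lower members. St3gal5, the synthase of ganglioside GM3, was higher by 0.32 ± 0.09, at 71.8 ± 9.25 TPM after rFibcd1 and 57.4 ± 7.64 in Control (SD, n = 5).

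High levels of several groups of transcripts were shared by 3 mice across both treatments, seen after the values were known. White adipocyte genes summed to 3986 TPM in Control + rFibcd1 replicate 1, 3441 in Control replicate 1 and 2915 in Control replicate 2, against 1051 to 1467 in the other 7. Interferon-stimulated genes summed to 665.9, 597.8 and 516.6 in the same mice, against 187.2 to 248 in the others. Endothelial and pericyte genes summed to 2296, 2324 and 2219, against 1508 to 1630. Ifi27l2a, an interferon-stimulated gene, was at 493.1, 463.1 and 378.5 TPM in these 3 mice and between 69.6 and 122.1 in the rest. As 1 of the 3 received rFibcd1 and 2 did not, the groups hold unequal numbers of such mice, and the part of this in the comparison was not tested.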
